A study of Mus musculus with 24 samples.

Results

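Genes of the ATF4 programme were followed in C2C12 cells, a mouse myoblast line that can leave the cell cycle and fuse into myotubes. The list covered transcription factors and feedback genes of the ATF4 pathway, enzymes that make or break down amino acids, amino acid transporters and cytosolic aminoacyl-tRNA ligases. Shares set against all tested genes are descriptive, because the list was made with earlier results of these data known. It held 43 genes, chosen by symbol. Of these, 42 had a probe set, among 18193 genes in all, and the probe annotation used here gave none for Pycr1, an enzyme of proline synthesis. Each gene was read by its brightest probe set over 12 cultures on the array design labelled MA, and only where MA had none, as for Mars, on the design labelled MB. For 8 genes (Bcat1, Gpt2, Slc1a5, Slc38a2, Slc7a1, Slc7a11, Vldlr and Wars) a brighter probe set lay on MB. The intensity filter was passed by 36 of the 42, among 12137 genes tested, and not by the chosen probe sets of Atf3, Slc7a11, Slc7a1, Slc7a3, Slc1a5 and Cth. MB probe sets of Slc7a1 and Slc1a5 did pass; that of Slc1a5, a carrier of neutral amino acids, was not called in any comparison (-0.09 to 0.37).

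ATF4 is the main transcription factor of the integrated stress response. Kinases that sense missing amino acids, unfolded protein, haem shortage or double-stranded RNA phosphorylate the initiation factor eIF2, which lowers protein synthesis in general but raises translation of the Atf4 mRNA. ATF4 protein, often paired with a C/EBP partner, then raises transcription of genes that import, make and charge amino acids, and of genes such as Ddit3, Trib3 and Ppp1r15a that shape or end the response. Because much of the control of ATF4 is translational, the level of its mRNA need not follow its activity. tRNA ligases join each amino acid to its tRNA and so supply protein synthesis. Muscle differentiation replaces the proteome of a dividing myoblast with that of a contractile fibre.

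The cultures formed 4 groups of 3: DM with 5 mM glucose, DM with 25 mM glucose, GM with 5 mM glucose and GM with 25 mM glucose. The labels give the media by abbreviation only; for this line the letters usually mean differentiation medium and growth medium. All groups share the unmodified line, and no drug, culture time or serum level is named. The labels give 5 mM or 25 mM without naming the compound; it is taken here as glucose, from the submitters' interest in calorie restriction and from the published use of glucose restriction in this line. Their question was whether such restriction changes the differentiation of myoblasts.

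Biotin-labelled RNA of each culture had been hybridised to both designs, which gave 24 arrays, and the deposited values are linear intensities already scaled to a common level. The number of arrays limits the precision, and since no label says that the cultures of a group were grown separately, the p-values reflect only the spread among them, which may be technical. Most muscle lineage markers fitted the labels. The summed intensity of 8 ran between 17988 and 29985 in DM at 5 mM and between 21165 and 36164 in DM at 25 mM. In GM it ran between 2778 and 3317 at 5 mM and between 2837 and 3119 at 25 mM. At each glucose level 6 of the 8 were called higher in DM, against 12.5% (25 mM) and 9.85% (5 mM) of all tested genes. Myod1 (log2 difference 0.30 at 25 mM, 0.29 at 5 mM) and Myf5 (-0.31, -0.38) were not called. Myog, Myh3 and Acta1 averaged under the filter of 33.2 in GM, so they were tested only through their DM level. The 4 adipocyte markers all stayed below the filter, 1 of 3 osteoblast markers passed it and was not called, and of 7 blood and endothelial markers 3 passed it, with Cd14 called lower in DM (-1.51 at 25 mM and -1.05 at 5 mM). A control probe set for 18S ribosomal RNA, with no counterpart in the labels, read 23.0 to 48.1 on MA in 4 low-18S cultures (DM 5 mM culture 2, DM 25 mM culture 3 and GM 5 mM cultures 1 and 2) and 279 to 1267 in the other 8. The log2 ratio of the 3′ to the 5′ actin probe set on MA, a measure of RNA quality, ran between 0.10 and 0.37 in DM at 5 mM, between 0.12 and 0.18 in DM at 25 mM, between -0.05 and 0.38 in GM at 5 mM, and between 0.34 and 0.55 in GM at 25 mM.

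The change of medium was accompanied by higher levels of many of these genes, and of most tRNA ligases at 25 mM glucose. At 25 mM, 19 of the 36 tested members were called (limma, adjusted p under 0.05), 15 higher and 4 lower in DM, or 52.8%. Of all tested genes 29% were called there, 12.5% higher and 16.6% lower. At 5 mM, 15 members were called, 9 higher and 6 lower in DM, or 41.7%. Of all tested genes 23.9% were called there, 9.85% higher and 14% lower. The median log2 difference, on the scale of intensity plus 20, was 0.21 over the members and -0.10 over all tested genes at 25 mM, and 0.04 and -0.04 at 5 mM. Both lists of calls held 10 genes with the same direction, which is 52.6% of those called at 25 mM and 66.7% of those called at 5 mM. These 10 were Gpt2, Slc7a5, Slc3a2, Asns, Slc6a9, Nars and Tars, higher in DM, and Bcat1, Cebpb and Cebpg, lower in DM. In such bulk RNA, fewer cells of a type and less RNA per cell cannot be told apart.

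Among the transcription factors, the C/EBP partners were lower in DM. Cebpb, a C/EBP family factor that can pair with ATF4, read 193, 243 and 150.1 in DM against 473, 497 and 487 in GM at 5 mM, and 279.9, 239 and 302 in DM against 336, 534 and 467 in GM at 25 mM. The groups did not overlap at either glucose level. It fell by 1.25 (SE 0.18) on the log2 scale at 5 mM, with an adjusted p of 8.21e-05, and by 0.65 (SE 0.18) at 25 mM, with an adjusted p of 0.0113. Cebpg, another C/EBP partner of ATF4, fell by 0.69 (adjusted p = 0.00961) at 5 mM and by 0.56 (0.0266) at 25 mM. Its next brightest probe set, near the filter, gave -0.39 and 0.10 and was not called. Atf5, a relative of ATF4 that is also controlled by translation, averaged 414 ± 19.8 in DM and 271 ± 88.7 in GM at 5 mM (SD, n = 3 each) and was called higher there, by 0.62 (adjusted p = 0.0195). At 25 mM its difference was -0.08 (adjusted p = 0.769).

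The Atf4 mRNA itself was among the brighter members and was not called in any comparison. It read 1610.2, 1280.3 and 1778 in DM and 1213, 1207 and 1453 in GM at 5 mM, and 2088, 2143 and 1368 in DM and 1716, 1433 and 1685 in GM at 25 mM. The lowest DM value at each glucose level came from a low-18S culture. At 25 mM the log2 difference was 0.19 (adjusted p = 0.455), and it was 0.33 (0.0165) with the 18S batch as a block and 0.39 (0.0164) over the high-18S cultures alone, so this call depended on the batch. Ddit3, the pro-apoptotic factor CHOP, had differences of -0.56 (adjusted p = 0.0803) at 25 mM and -0.31 (0.372) at 5 mM. Atf3, a stress-induced factor, read between 1.99 and 27.7 in all 12 cultures, too low to test. Nupr1, a small stress-induced chromatin protein, was called lower in DM at 5 mM, by 0.39 (adjusted p = 0.0482), but kept that call in 6 of 24 alternatives.

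**Figure D1:**
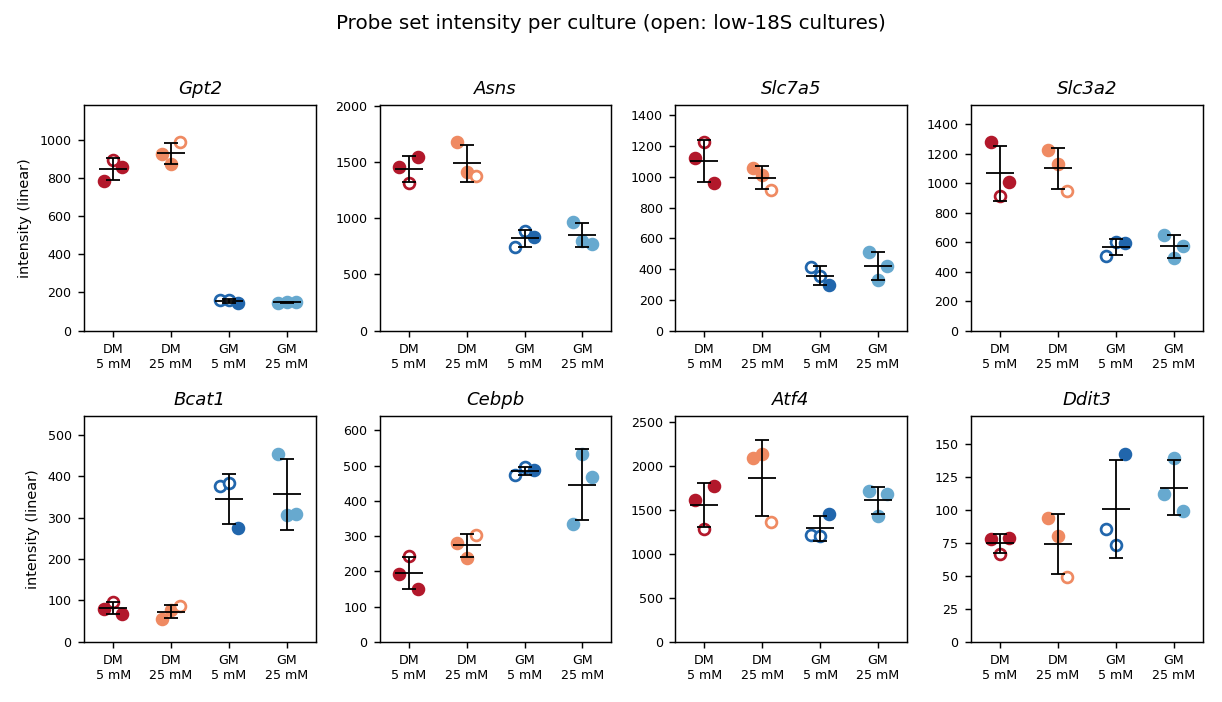
Probe set intensity (linear, arbitrary units) of 8 genes in each culture; columns are DM 5 mM, DM 25 mM, GM 5 mM and GM 25 mM, bars show mean ± SD (n = 3), and open points are low-18S cultures. Gpt2, Asns, Slc7a5 and Slc3a2 were higher and Bcat1 and Cebpb lower in every DM culture than in every GM culture at the same glucose, whereas Atf4 overlapped at both levels and Ddit3 at 5 mM. Of the 36 tested members, 14 were higher and 5 lower in DM without overlap at 25 mM, and 10 and 9 at 5 mM. The share over all tested genes was not counted.

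The feedback genes showed little shared movement between the media. Ppp1r15a, which encodes GADD34, the subunit that directs eIF2 dephosphorylation, was higher in DM at 25 mM by 0.75 (SE 0.26, adjusted p = 0.037). It read 121, 173 and 128 in DM against 50.9, 132 and 58.6 in GM, so the groups overlapped. Vldlr, a lipoprotein receptor and ATF4 target, fell by 1.22 (SE 0.26) at 25 mM (adjusted p = 0.00213). Trib3, a pseudokinase that restrains ATF4, was dim, with averages of 20.2 ± 10.4 in DM at 5 mM, 36.1 ± 18.3 in DM at 25 mM, 35.9 ± 10.5 in GM at 5 mM and 61.8 ± 19.3 in GM at 25 mM (SD, n = 3 each), and was not called. Sesn2, an inhibitor of mTORC1 signalling, and the growth arrest gene Gadd45a were not called either.

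Enzymes of amino acid metabolism held the most extreme members in both directions. Gpt2 (chr8:85492576-85528902, GRCm38.p6, as for the other positions), the mitochondrial alanine transaminase, read 784, 896 and 861 in DM against 162, 160.2 and 144 in GM at 5 mM, and 926, 877 and 989 in DM against 147, 152 and 148 in GM at 25 mM. All 6 DM cultures stood far above all 6 GM cultures. The log2 difference was 2.49 (SE 0.11, adjusted p = 5.34e-10) at 25 mM and 2.30 (SE 0.11, adjusted p = 1.19e-09) at 5 mM, and the other tested Gpt2 probe sets, 2 on MA and 1 on MB, gave 2.09 to 2.77 and 2.13 to 2.38. Bcat1 (chr6:144993835-145076157), the cytosolic branched-chain amino acid transaminase, went the other way. It read 78.7, 97.2 and 68.0 in DM against 376, 384 and 275 in GM at 5 mM, and 55.6, 76.6 and 86.1 in DM against 455, 306 and 308 in GM at 25 mM. It fell by 2.01 (SE 0.20, adjusted p = 2.02e-06) at 25 mM and at 5 mM the difference was -1.85 (SE 0.20, adjusted p = 5.39e-06). A dimmer Bcat1 probe set on MA was also called lower, with -1.28 and -1.53, and 1 on MB gave -0.44 and -0.46 and was not called.

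Asns (chr6:7675165-7693209), asparagine synthetase and a classical ATF4 target, read 1453, 1316 and 1544 in DM against 742, 890.2 and 829 in GM at 5 mM, and 1676, 1411 and 1379 in DM against 970.3, 799.8 and 773 in GM at 25 mM. The groups did not overlap, and the difference was 0.80 (SE 0.13) at both glucose levels, with adjusted p of 0.00036 at 5 mM and 0.000304 at 25 mM. Got1, the cytosolic aspartate transaminase, was called higher in DM at 25 mM alone (0.48, adjusted p = 0.0354). Aldh18a1, which makes the precursor of proline, fell in DM at 5 mM by 1.01 (SE 0.15, adjusted p = 9.62e-05), against a difference of -0.22 (0.252) at 25 mM. Another Aldh18a1 probe set was called lower at 25 mM as well (-0.63, 0.0134).

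Of the 5 tested transporters, out of 9 with a probe set, 3 were called higher in DM at each glucose level. Of all tested genes 12.5% were called higher at 25 mM and 9.85% at 5 mM. Slc7a5 (chr8:121881146-121907686), the LAT1 chain that carries large neutral amino acids, read 1125, 1225 and 959 in DM against 417, 358 and 297 in GM at 5 mM, and 1060.2, 1011 and 912 in DM against 512, 330.3 and 421 in GM at 25 mM. The differences were 1.58 (SE 0.16, adjusted p = 3.93e-06) and 1.22 (SE 0.16, adjusted p = 4.25e-05). Slc3a2, the CD98 heavy chain that partners LAT1 at the membrane, differed by 0.88 (adjusted p = 0.000484) at 5 mM and 0.92 (0.000279) at 25 mM. Neither gene's DM and GM cultures overlapped. Slc6a9, a glycine transporter, was higher by 0.48 (0.0462) and 0.57 (0.0174). Slc1a4, a carrier of small neutral amino acids, fell by 0.66 at 5 mM (adjusted p = 0.0129). Slc38a2, the SNAT2 carrier of neutral amino acids, was not called.

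The cationic amino acid transporter Slc7a1 showed how much the choice of probe set can matter. Its MA probe set read 10.1 to 41.4 across the 12 cultures and was not tested. Its MB probe sets, with mean intensities of 1080.0 and 934, were higher in DM at 25 mM by 1.51 (adjusted p = 0.000537) and 1.21 (0.00461), and were not called at 5 mM (0.72, 0.115, and 0.69, 0.148). For members called at 25 mM, 14 further probe sets were tested: 13 had the same sign, 9 were called in the same direction and 0 in the opposite one, where 21.2% of all tested probe sets were called. At 5 mM these counts were 19, 11 and 0 of 21, where 17.5% of all tested probe sets were called. These probe sets read the same RNA of genes already called, so their agreement is not independent support. The shares over all probe sets are given for scale only.

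The cytosolic tRNA ligases moved most at 25 mM glucose. There, 8 of 13 were called higher in DM and 0 lower, or 61.5%, with a median of 0.56. Of all tested genes 12.5% were called higher there, and their median was -0.10. At 5 mM 3 were called higher and 0 lower, or 23.1%, with a median of 0.15. Of all tested genes 9.85% were called higher there and 23.9% in either direction, and their median was -0.04. Nars, the asparagine ligase, and Tars, the threonine ligase, were called at both levels. Nars read 1109.6, 1059 and 1190.3 in DM against 872, 826 and 811 in GM at 5 mM, and 1567, 1648 and 1448 in DM against 1024, 839 and 730.0 in GM at 25 mM. Its groups did not overlap, with differences of 0.41 (adjusted p = 0.0285) and 0.84 (0.000162). Tars differed by 0.43 (adjusted p = 0.0315) at 5 mM and 0.78 (0.00058) at 25 mM.

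The other ligases called at 25 mM were Iars, for isoleucine (0.96, adjusted p = 0.00623), Mars, for methionine (0.76, 0.0265), Aars, for alanine (0.61, 0.0353), Lars, for leucine (0.56, 0.00138), Gars, for glycine (0.55, 0.0107), and Cars, for cysteine (0.45, 0.0313). At 5 mM none of these 6 was called, and Iars and Cars had differences of -0.47 (0.17) and -0.41 (0.0597). Wars, the tryptophan ligase, was called higher at 5 mM (0.50, adjusted p = 0.0209). However, its probe set on MB, with a mean intensity of 500 against 373 for the chosen one, gave -0.17 (0.834). Sars, Yars, Eprs and Vars, the ligases for serine, tyrosine, glutamate with proline, and valine, were called at neither level.

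**Figure D2:**
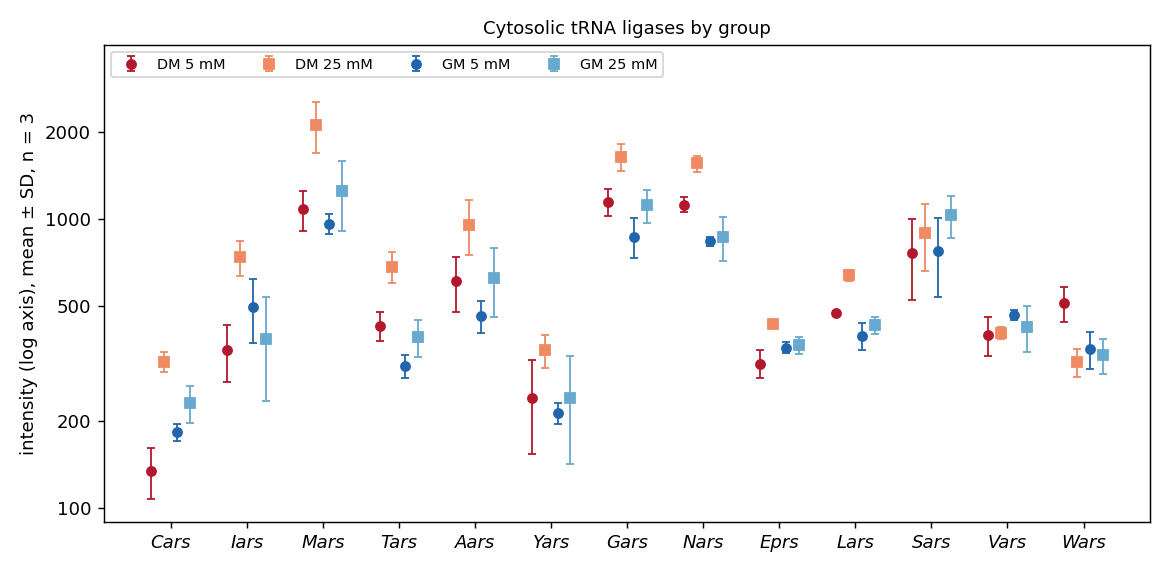
Intensity of the 13 cytosolic tRNA ligases on a log axis (arbitrary units), as mean ± SD of 3 cultures in DM 5 mM, DM 25 mM, GM 5 mM and GM 25 mM. Probe sets differ in brightness, so only the groups within a gene can be compared; DM at 25 mM had the highest mean for Cars, Iars, Mars, Tars, Aars, Yars, Gars, Nars, Eprs and Lars.

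Promoter sequence was available from RefSeq (GRCm38.p6) for 33 of the 42 members, as windows from 250 bases before to 50 after the annotated start. No window was given for Cars, Cth, Lars, Nars, Slc1a5, Slc7a3, Slc7a5, Vars and Wars. The letters TGATGNAA, the core of the C/EBP-ATF response element through which ATF4 is known to act, were searched on both strands. They were found in 14 of the 33 members (42.4%), against 4.51% of all 27025 genes with a window, and in 5 of the 8 ligases with one. Such a match describes the letters only. The following 120 bases before the start are shown for Asns and for called ligases and Nupr1, 5′ to 3′ on the gene's strand with the match, in either orientation, in capitals. The Aars gene is annotated from 111027778, so its window precedes a later transcript start within that span. For Iars the match lies just past the start, so 30 bases around it are given.
Asns, chr6:7693210-7693329, minus strand: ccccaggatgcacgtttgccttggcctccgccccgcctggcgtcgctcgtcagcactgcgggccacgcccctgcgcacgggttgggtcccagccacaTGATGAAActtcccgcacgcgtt
Tars, chr15:11399659-11399778, minus strand: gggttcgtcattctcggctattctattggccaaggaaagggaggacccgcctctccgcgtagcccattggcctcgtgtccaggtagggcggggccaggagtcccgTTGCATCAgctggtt
Gars, chr6:55037881-55038000, plus strand: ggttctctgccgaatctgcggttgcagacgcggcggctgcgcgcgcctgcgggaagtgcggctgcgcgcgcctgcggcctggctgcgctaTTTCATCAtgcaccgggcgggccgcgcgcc
Aars, chr8:111033722-111033841, plus strand: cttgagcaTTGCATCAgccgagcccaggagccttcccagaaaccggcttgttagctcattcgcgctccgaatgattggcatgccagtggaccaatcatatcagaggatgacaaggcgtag
Nupr1, chr7:126625471-126625590, minus strand: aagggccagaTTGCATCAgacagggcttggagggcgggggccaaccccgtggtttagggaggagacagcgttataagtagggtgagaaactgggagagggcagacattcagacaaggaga
Iars, chr13:49682126-49682155, plus strand: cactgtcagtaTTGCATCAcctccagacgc

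Counted so that 1 is the first transcribed base and -1 the base before it, the matches began at -23 in Asns, -15 in Tars, -30 in Gars, -112 and 10 in Aars, -110 in Nupr1 and 8 in Iars. All but that of Asns ran on the opposite strand. Matches were also found in Atf3, Chac1, Got1, Slc1a4, Slc7a11, Trib3, Vldlr and Yars. Members with the letters differed in direction: in DM at 25 mM Asns, Tars, Gars, Aars, Iars and Got1 were called higher, Vldlr was called lower, and Chac1, Nupr1, Slc1a4, Trib3 and Yars were not called.

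Support for the medium calls varied with the culture. At 25 mM, 10 of the 19 calls held without any single culture, and Aars, Cars, Cebpb, Cebpg, Gars, Got1, Mars, Ppp1r15a and Slc6a9 each lost theirs without at least 1 of the 6 cultures compared, with adjusted p up to 0.155. At 5 mM, 7 of 15 held, and Atf5, Cebpg, Nars, Nupr1, Slc1a4, Slc6a9, Tars and Wars lost theirs without at least 1 culture, with adjusted p up to 0.209.

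**Figure D3:**
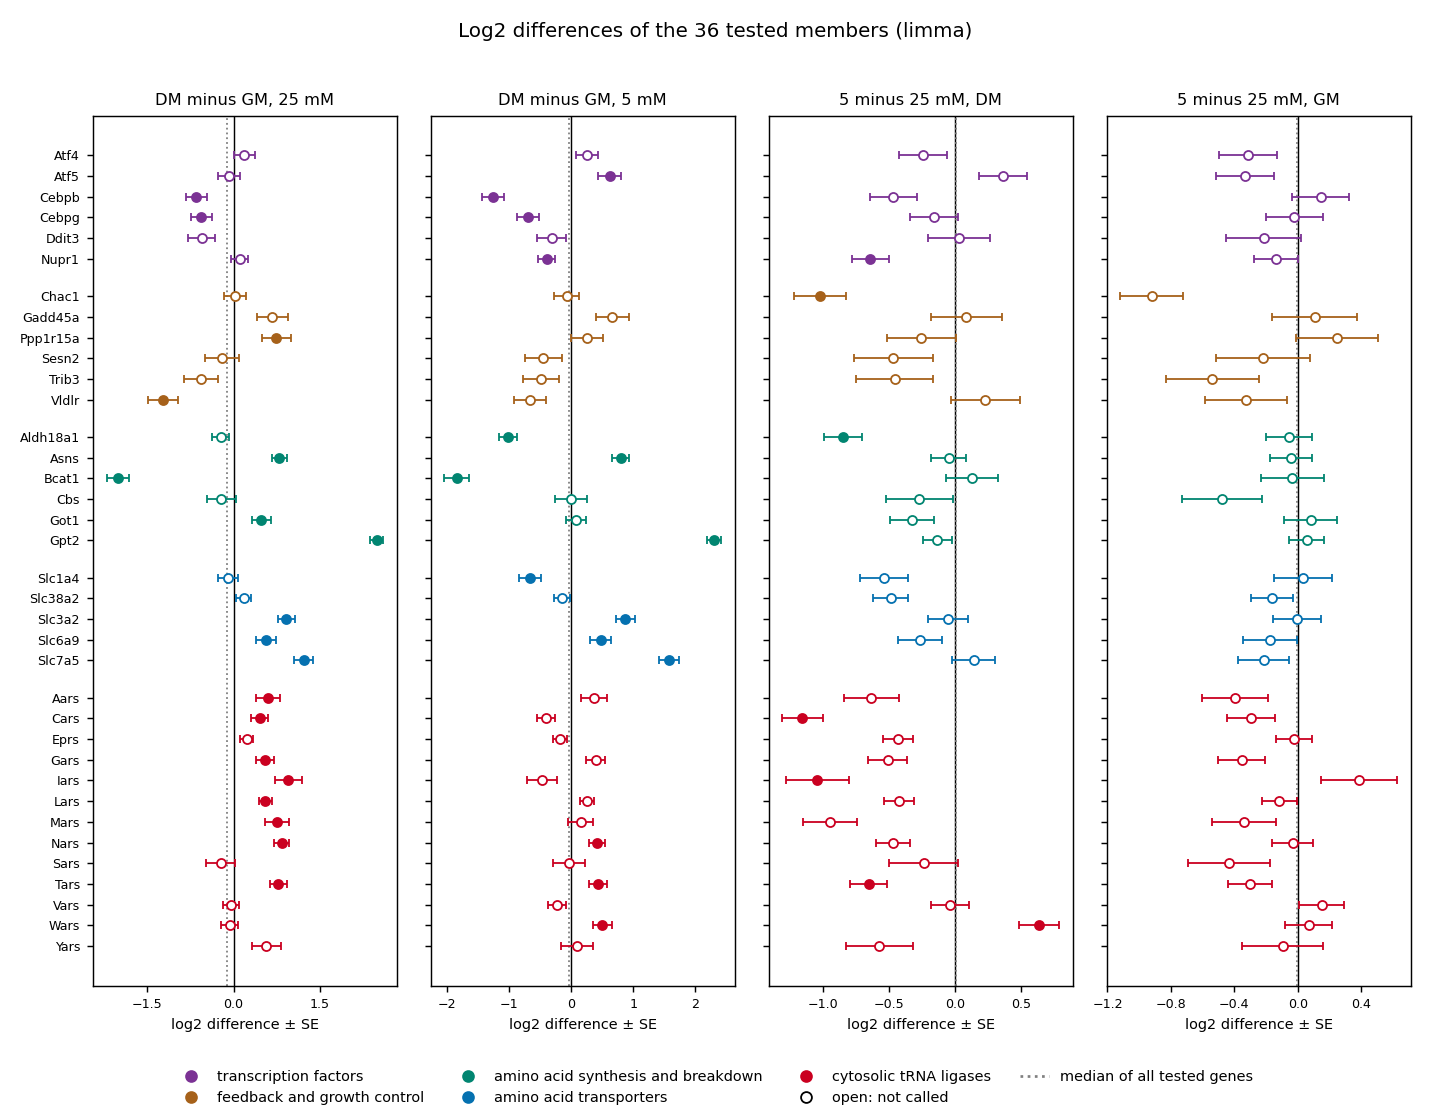
Log2 difference ± SE of the 36 tested genes in 4 comparisons (DM minus GM at 25 mM and at 5 mM, 5 minus 25 mM in DM and in GM), grouped by role; each panel has its own axis. Filled points passed adjusted p under 0.05 in limma, open points did not, and the dotted line is the median of all 12137 tested genes. Called genes numbered 19, 15, 7 and 0.

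Lower glucose in DM went with lower levels of 3 ligases and of a few stress and synthesis genes. Of the 36 members, 7 were called, 6 lower and 1 higher at 5 mM, or 19.4%. Of all tested genes 1.41% were called, 0.939% lower and 0.47% higher. The median difference, 5 mM minus 25 mM, was -0.37 over the members and 0.01 over all tested genes, and 29 of 36 were negative, against 48.4% of all tested genes. An unadjusted p under 0.05 was reached by 17 members, and by 9.68% of all tested genes. The lower genes were Cars, Iars, Chac1, Aldh18a1, Tars and Nupr1, and the higher gene was Wars.

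Cars (chr7:143557230-143600090) was the member with the smallest p-value. It read 125, 114 and 165 in DM at 5 mM against 296, 322 and 347 in DM at 25 mM, with no overlap. It fell by 1.15 (SE 0.15, adjusted p = 0.000967). This call held in all 23 alternatives, including that without the low-18S cultures (adjusted p = 0.0241). Iars read 293, 440.1 and 321 at 5 mM against 696, 661 and 855 at 25 mM and fell by 1.04 (SE 0.24, adjusted p = 0.0425). A second Iars probe set fell by 0.98 (adjusted p = 0.0019), in a comparison that called 0.853% of all tested probe sets. Tars read 443, 374 and 468 at 5 mM against 729, 735 and 589 at 25 mM and fell by 0.65 (SE 0.14, adjusted p = 0.0303). The 3 genes were among 16 of the 36 members that lay lower at 5 mM without overlap, and 2 lay higher. The share of all tested genes without overlap was not counted.

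The remaining ligases mostly lay in the same direction without passing the test. Of the 13, 12 were lower at 5 mM, with a median of -0.51, and 10 of these had an unadjusted p under 0.05, as did Wars, against 9.68% of all tested genes. Mars, on MB, read 1237, 898 and 1107 at 5 mM against 2591, 1838 and 1895 at 25 mM, a difference of -0.95 (SE 0.20, adjusted p = 0.134). Aars (-0.63, adjusted p = 0.208), Yars (-0.57, 0.448), Gars (-0.51, 0.141), Nars (-0.47, 0.115), Eprs (-0.43, 0.0897) and Lars (-0.42, 0.0898) were likewise not called, although second probe sets of Aars (-0.84, 0.00246) and Nars (-0.56, 0.0268) were. Wars was the exception. It read 432, 528 and 572 at 5 mM against 304, 362 and 296 at 25 mM, higher by 0.64 (SE 0.15, adjusted p = 0.0481). That call held in 5 of 24 alternatives, and the 4 other tested Wars probe sets gave -0.16 to 0.24 and were not called.

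Outside the ligases, Chac1 (chr2:119351242-119354326), which degrades glutathione and is a strong ATF4 target, read 71.1, 62.9 and 57.9 in DM at 5 mM against 138, 174 and 139.7 in DM at 25 mM. It fell by 1.02 (SE 0.20, adjusted p = 0.0151). Aldh18a1 (chr19:40550257-40588463) read 124, 102 and 103 at 5 mM against 195, 253 and 194 at 25 mM and fell by 0.85 (SE 0.15, adjusted p = 0.00713). Its 4 other tested probe sets, with -1.15 (adjusted p = 0.0604), -0.74, -0.43 and 0.11, were not called. Nupr1 read 110.5, 98.3 and 114 at 5 mM against 188, 185 and 163 at 25 mM and fell by 0.64 (SE 0.14, adjusted p = 0.0327), and its second probe set fell by 1.27 (0.00222). None of the 3 overlapped between the glucose levels, and they belong to the same group of members lower without overlap. Genes called strongly between media showed no called difference here: Gpt2 had -0.13 (adjusted p = 0.805), Asns -0.05 (0.959), Slc3a2 -0.05 (0.961) and Slc7a5 0.14 (0.879). Atf4 had -0.24 (SE 0.18, 0.771), Ddit3 0.03 (0.982), Trib3 -0.46 (0.694) and Atf5 0.37 (0.536).

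**Figure D4:**
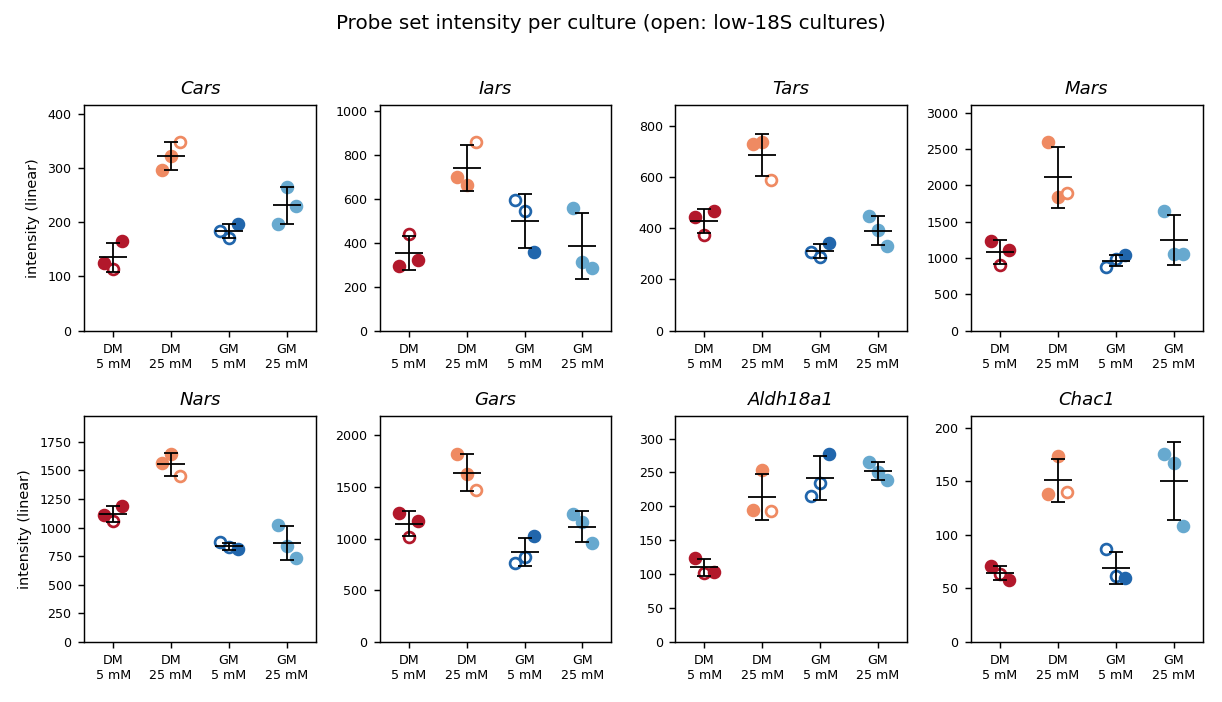
Probe set intensity (linear, arbitrary units) of 8 genes in each culture; columns are DM 5 mM, DM 25 mM, GM 5 mM and GM 25 mM, bars show mean ± SD (n = 3), and open points are low-18S cultures. In DM every culture at 5 mM lay below every culture at 25 mM for all 8 genes, of which Cars, Iars, Tars, Aldh18a1 and Chac1 were called. The 8 were chosen from the 36 tested members, of which 16 were lower and 2 higher without overlap. The share over all tested genes was not counted.

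The 18S batch changed the number of calls in this comparison more than in the others. With the batch as a block, 14 members were called, 13 lower and 1 higher, against 3.4% of all tested genes, and 10 of these were ligases, 9 lower and 1 higher. Over the high-18S cultures alone, 2 against 2, Cars and Aldh18a1 were called, against 0.939% of all tested genes. Within each batch most members were lower at 5 mM. The median over the 36 was -0.26 for the single low-18S pair, with 27 negative, and -0.39 for the high-18S cultures, with 30 negative. For the ligases these medians were -0.52 and -0.48. The low-18S pair has no replicate, and the medians of all tested genes within a batch are not given here. A shift of single arrays therefore cannot be told apart from a difference of the members. Without DM 5 mM culture 3 or without DM 25 mM culture 2, 2 members were called. Wars was lost in both (adjusted p up to 0.229), Chac1 then had an adjusted p of 0.0688 and 0.0856, Iars 0.173 and 0.0947, Tars 0.0562 and 0.142, and Nupr1 0.0774 and 0.132.

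Proliferation markers moved with glucose in DM as well. All 5 on the list were called, Mki67, Top2a, Ccnb2 and Ube2c lower and Ccnd1 higher, and their summed intensity was 768 to 989.5 in DM at 5 mM and 1156 to 1338 in DM at 25 mM, against 4382 to 4868 in GM at 5 mM and 4412 to 5091 in GM at 25 mM. None of the 8 muscle lineage markers was called in DM between the glucose levels. An unadjusted p under 0.05 was reached by 3 of them, and by 9.68% of all tested genes. Ckm (-0.62, adjusted p = 0.281) and Myh3 (-0.52, 0.439) were lower at 5 mM, and Cdh15 (0.40, 0.288) was higher. Myog, the myogenic factor of early differentiation, differed by 0.01 (adjusted p = 0.995). Hspa5, the main chaperone of the endoplasmic reticulum, fell by 1.62 (SE 0.16, adjusted p = 0.000137). The part of these shifts in the members' differences was not tested.

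In GM, 0 of the 36 members were called between the glucose levels, against 0.00824% of all tested genes (limma), and 3 had an unadjusted p under 0.05, or fewer than the 9.57% of all tested genes that did. The median difference was -0.13 over the members and -0.01 over all tested genes. Chac1 had the largest, with 86.6, 61.3 and 59.3 in GM at 5 mM against 176, 167 and 108 in GM at 25 mM. Its groups did not overlap, and the difference of -0.92 (SE 0.20) had an unadjusted p of 0.000335 and an adjusted p of 0.304. Gars (-0.35, adjusted p = 0.451) and Tars (-0.30, 0.465) were the others below the unadjusted threshold. The lack of calls does not show that glucose had no effect in GM, and 2 of the 3 GM cultures at 5 mM but none at 25 mM were low-18S, so batch and glucose were partly mixed there. Only 1 GM culture at 5 mM was high-18S, and with it the median was -0.04.

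**Figure D5:**
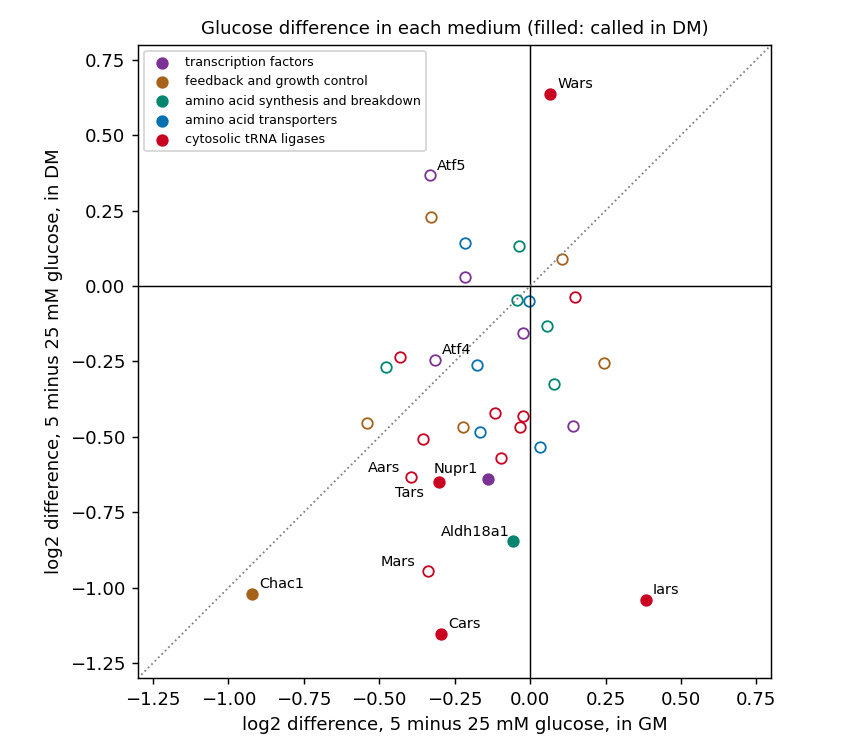
Log2 difference of 5 mM minus 25 mM glucose in DM (vertical) against the same in GM (horizontal) for the 36 tested genes, coloured by role; filled points were called in DM and the dotted line marks equal differences. Chac1 lay near that line, at -1.02 in DM and -0.92 in GM, whereas Cars and Iars lay well below it.

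The interaction asks whether the glucose difference in DM departed from that in GM. Called members numbered 0 of 36 (limma), against 0.478% of all tested genes. An unadjusted p under 0.05 was reached by 11 of the 36, a larger share than the 11.1% of all tested genes. Iars had the largest estimate, -1.42 (SE 0.34, adjusted p = 0.1), from a difference of -1.04 in DM and 0.38 in GM, and its second probe set gave -1.08 and was called (0.028), as were 0.277% of all tested probe sets. Cars had -0.86 (SE 0.21, 0.125) and Aldh18a1 -0.79 (SE 0.21, 0.146). For Chac1 the interaction was -0.10 (SE 0.28, 0.906). Single alternatives called Cars, Aldh18a1 or Iars, so a different response of the members in the media was not shown for any chosen probe set.

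Other genes of the pathway were taken from lists made with earlier results of these data known. Of 9 other cytosolic ligase and scaffold genes tested, 6 were called higher and 1 lower in DM at 25 mM, 5 higher and 1 lower at 5 mM, and 0 between glucose levels in DM. These are 77.8%, 66.7% and 0%, where 29%, 23.9% and 1.41% of all tested genes were called. Aimp2, a scaffold protein of the multi-ligase complex, read 741, 789 and 925 in DM against 285, 278 and 258 in GM at 5 mM, and 1155, 1199.6 and 929.8 in DM against 326, 238 and 205 in GM at 25 mM. Its differences were 1.51 (adjusted p = 4.42e-06) and 2.03 (2.06e-07). Eef1e1, another scaffold protein, differed by 0.94 (0.000229) and 1.13 (3.58e-05), and the phenylalanine ligase subunits Farsa and Farsb by 0.83 (0.000236) and 0.51 (0.0137) at 5 mM and by 0.78 (0.000372) and 0.998 (7.81e-05) at 25 mM. Of 15 mitochondrial ligases, 2 were called higher, Nars2 and Ears2, and 1 lower, Hars2, at each glucose level, a smaller share than of all genes. Ears2 averaged 24.0 in GM at 5 mM and 19.6 in GM at 25 mM, under the filter of 33.2, so it was tested only through its DM level.

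Among 11 tested genes for eIF2 kinases, eIF2 and its exchange factor eIF2B, 5 were called higher and 1 lower in DM at 25 mM. At 5 mM, 4 were called higher and 1 lower. These are 54.5% and 45.5%, where 29% and 23.9% of all tested genes were called. The lower gene at 25 mM, Eif2ak2, averaged 23.5 in DM there, under the filter of 33.2. Eif2ak1, the haem-regulated eIF2 kinase, averaged 232 ± 8.23 in DM and 122 ± 19.9 in GM at 5 mM, and 244 ± 9.76 in DM and 118 ± 16.5 in GM at 25 mM (SD, n = 3 each). Its differences were 0.84 (adjusted p = 0.00049) and 0.94 (0.000162). Eif2ak3, the kinase PERK of the endoplasmic reticulum, fell by 0.67 at 5 mM (0.038). Eif2s2, the beta subunit of eIF2, was higher by 0.47 (0.0102) and 1.01 (1.95e-05), and Eif2b3, a subunit of eIF2B, by 0.79 (0.0182) and 1.03 (0.00183). Of 14 other amino acid transporters, 3 were called higher at 5 mM and 1 higher and 1 lower at 25 mM, or 21.4% and 14.3%, both below the share of all genes. The taurine carrier Slc6a6 was higher by 1.32 (0.00121) and 1.17 (0.00245), Slc43a2 (0.94, 0.0313) and Slc38a1 (0.53, 0.0292) were higher at 5 mM, and Slc7a4 was lower at 25 mM (-0.61, 0.0131). In DM, neither group had a call between the glucose levels. Leaving out at least 1 culture ended the 5 mM calls of Farsb and Eif2b3.

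The last list, 14 other ATF4 targets, held a gene with a larger glucose difference in DM than any member. Fgf21, a secreted stress hormone, read 172, 280.0 and 304 in DM at 5 mM against 1206, 1017 and 889 in DM at 25 mM, and 5.59 to 9.46 in GM at 5 mM against 11.5 to 30.8 in GM at 25 mM. It fell by 1.99 (SE 0.23, adjusted p = 0.000311) with lower glucose in DM. All its GM values lay under the filter of 33.2, so it was tested only through its DM level, and no fold between the media is given. Phgdh, which opens serine synthesis, went against it: 1863, 1317 and 1893 in DM at 5 mM against 979, 897 and 748 in DM at 25 mM, a difference of 0.92 (SE 0.17, adjusted p = 0.00892). Without DM 5 mM culture 1 or 3 that call was lost, with adjusted p of at most 0.066. Jdp2, a repressor of the AP-1 family, was higher by 0.59 (0.0423), a call held in 7 of 23 alternatives. Mthfd2, a mitochondrial folate enzyme, was higher in DM than in GM by 1.01 (0.0014) at 5 mM and 1.06 (0.000861) at 25 mM and had -0.47 (0.399) between glucose levels in DM. Stc2, a secreted glycoprotein, was higher in DM at 5 mM (0.66, 0.0321). In all, 4 of the 14 were called higher and 4 lower in DM at 25 mM, and 5 higher and 1 lower at 5 mM. With lower glucose in DM, 2 were called higher and 1 lower. These are 57.1%, 42.9% and 21.4%, where 29%, 23.9% and 1.41% of all tested genes were called. Fgf21 was among the higher in both medium counts, although it was tested only through its DM level. Txnip, a gene known to follow glucose, was lower in DM than in GM at 25 mM (-1.24, adjusted p = 0.00127). It was not called between glucose levels in DM (-0.04, 0.98). In GM it read 70.3, 70.8 and 89.8 at 5 mM against 175, 219 and 267 at 25 mM. That difference of -1.3 (SE 0.25) had an unadjusted p of 0.000113 (limma) and was not called (adjusted p = 0.271), in a comparison that called 0.00824% of all tested genes.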

How the data were processed

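Total RNA of 12 C2C12 cultures had been hybridised to array designs MA and MB. The authors deposited an intensity on a linear scale for each probe set, as the values show; the software, its settings and any filter are not given in the sources used here. Trimmed means (2% at each end) lay at 150.05 to 150.07 for MA and 150.02 to 150.03 for MB, so the deposited intensities had been scaled and were not renormalised. Values were used as log2(intensity + 20). Probe sets whose mean lay above the 40th percentile of a design (33.2 on MA, 54.1 on MB) were tested: 13575 and 13506. Each design was fitted with limma 3.58.1 in R 4.3.3 as 4 group means with eBayes and trend. P-values, two-sided, were adjusted by Benjamini-Hochberg over all tested probe sets of a design, and those under 0.05 were called. The fit was tested on simulated data.

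Probe sets were named through the platform annotation, and gene positions came from RefSeq (GRCm38.p6). Members, pathway lists and markers were chosen with earlier results of these data known. Named were all called members, Atf4, Atf3, Atf5, Ddit3, Trib3 and Asns, up to 3 called genes of each pathway list and comparison, and Myog, Mki67, Hspa5 and Txnip. Alternatives covered pseudocount, filter, scaling, moderation, arrays in the fit, replicate block, 18S batch, single cultures left out and the next brightest probe set. The last is the brightest probe set other than the chosen one, on either design, so on MB it can be brighter than the chosen one. It was run for members only. The labels give replicate numbers but do not say whether these pair the cultures.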

Additional observations from a re-analysis of the deposited data

Results flagged for a closer look

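Tests of the interaction picked out 6 of the named genes, none of them a member, whose glucose difference departed between the media (limma, n = 3 per group). Herpud1, a membrane protein of endoplasmic reticulum stress, had an interaction of -1.85 (adjusted p = 0.0274), from -0.89 in DM and 0.96 in GM; the call held in 11 of 22 alternatives. Its GM cultures at 5 mM read 736, 756 and 334, against 298, 280.4 and 274 at 25 mM, and the 2 high values came from low-18S cultures. Phgdh had 1.32 (0.0227), from 0.92 in DM and -0.40 in GM, held in 13 of 22. The proliferation marker Mki67 had -1.04 (0.0216), from -0.92 in DM and 0.11 in GM, held in 14 of 22. Hspa5 had -1.69 (0.00769), from -1.62 in DM and 0.06 in GM, held in all 22. These 4 kept their sign in all 22 alternatives, which did not include any other probe set of these genes. The proliferation markers Ube2c (-1.25, 0.00844) and Ccnb2 (-0.88, 0.0444) were also called. With 3 cultures in a group, single cultures were not screened as outliers.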

How the results depend on the processing

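The number of members called depended on the setting. For DM against GM at 25 mM, 19 were called, 12 to 21 without single cultures (fewest without GM 25 mM culture 3) and 7 with the next brightest probe set. That probe set was tested in 22 genes, of which 10 were called with the chosen one. For some of them, such as Wars, it lay on MB and was brighter than the chosen one. For DM against GM at 5 mM, 15 were called, 9 to 14 without single cultures (fewest without DM 5 mM culture 1 or GM 5 mM culture 1). With the next brightest probe set 7 were called, against 11 with the chosen one in those 22 genes. For glucose in DM, 7 were called, 2 to 7 without single cultures, 14 with the 18S batch as a block and 2 in the high-18S cultures only. In that comparison 4 were called with eBayes without trend, 3 with only the arrays compared and 3 with the replicate block. With the next brightest probe set 4 were called, equal to 4 with the chosen one in the same 22 genes. For glucose in GM, 0 were called throughout. For the interaction, 0 were called, 0 to 1 without single cultures, 1 with median centring (Cars), 1 with the 18S block (Aldh18a1) and 1 with the next brightest probe set (Iars); it has no version with only the arrays compared. Of 41 member calls, 41 were kept with the 18S block, 29 in the high-18S cultures only, 35 with the replicate block and 15 in every alternative, and 39 kept their sign throughout. The exceptions, both with the next brightest probe set, were Wars in DM against GM at 5 mM (-0.17) and Cebpg at 25 mM (0.10, adjusted p = 0.869). The cause was not tested. Median centring moved the median of all tested genes to 0.07 for DM against GM at 25 mM, against -0.10 as deposited, and to 0.12 for glucose in GM, against -0.01. At 25 mM it gave 19 members higher and 2 lower in place of 15 and 4, and for glucose in DM 0 higher and 6 lower in place of 1 and 6. Deviations of same-numbered cultures had correlations of -0.56 to 0.52 (18 pairs, of which 3 were over 0.1). Some same-numbered cultures also differ in 18S batch, so these correlations cannot decide whether the numbers pair the cultures. The replicate block adjusts for a shared number only and gave 18, 14, 0, 3 and 0 calls. Dim probe sets such as those of Atf3, Trib3 and Sesn2 carry little information at this signal.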
